A study of Homo sapiens with 6 samples.

Results

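The GRHL, OVOL and epithelial ETS factors are a set of 9 human transcription factor genes that epithelial cells use to keep their identity, and they were followed here across 6 microarrays of one lung cancer line. The set was GRHL1, GRHL2, GRHL3, OVOL1, OVOL2, ELF3, ELF5, EHF and TP63, and a gene was taken where the platform annotation gave a probe set exactly 1 of these symbols. Of the 9, 8 were measured, each by 1 probe set, among 18417 genes in all, and TP63 is not analysed here. H358, the line used, was established from a non-small cell lung cancer. Its cells carried either TwistER (3 arrays, titled as after epithelial-mesenchymal transition, EMT) or green fluorescent protein, GFP (3 arrays, titled as before EMT). Constructs of this name fuse the transcription factor Twist to an estrogen receptor domain, and 4-hydroxytamoxifen (4OHT) switches the fusion on. TwistER and GFP cells alike received 100 nM 4OHT for 12 days, so the drug is shared by both groups. The labels name no promoter for either construct, do not say whether a line is 1 clone, and list no TwistER cells without 4OHT, so activation of TwistER and other differences between the lines cannot be told apart.

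Grainyhead-like (GRHL) proteins bind DNA as dimers and keep junction genes such as CDH1 active in epithelia. OVOL proteins are zinc-finger repressors that hold down ZEB1 and other drivers of EMT, and GRHL2 and ZEB1 are known to repress one another. ELF3, ELF5 and EHF form the epithelium-specific branch of the large ETS family, and p63, the product of TP63, marks basal cells of stratified and airway epithelium.

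Values are log2 expression, on which 1 unit is a doubling, and every difference is TwistER minus GFP. Differences were tested with limma across all 18417 genes, and a gene is said to have risen or fallen where its Benjamini-Hochberg adjusted p was under 0.05. By this rule 1627 genes (8.83%) changed, 870 (4.72%) upward and 757 (4.11%) downward. One GFP array, replicate 1, differed most from its group. Over all genes it correlated with GFP replicates 2 and 3 at r = 0.982 to 0.983, whereas these correlated with each other at r = 0.996. With the TwistER arrays GFP replicate 1 correlated at r = 0.968 to 0.972, against 0.979 to 0.980 for GFP replicates 2 and 3. Over all genes it was thus not nearer to TwistER than they were. Results for the factors are therefore given with and without GFP replicate 1. Epithelial markers (EPCAM, CDH1, KRT7, KRT8, KRT18 and KRT19) had a mean log2 level of 7.43 to 7.46 in TwistER arrays, against 9.34 to 9.93 in GFP arrays, the 9.34 being GFP replicate 1. Of the 6, 4 fell and 0 rose. Markers of other cells were also read: of 8 fibroblast markers 3 rose and 1 fell, of 5 endothelial markers 2 rose and 0 fell, and of 4 leukocyte markers 0 passed in limma, also 0 at an unadjusted p under 0.05. Their mean levels ran from 5.02 to 5.08 in TwistER arrays and 4.75 to 4.89 in GFP arrays for the fibroblast list, 4.42 to 4.52 and 3.94 to 4.02 for the endothelial list, and 4.01 to 4.30 and 3.90 to 3.98 for the leukocyte list. Among the fibroblast markers the collagen genes COL3A1 (2.13 ± 0.15) and COL1A1 (0.54 ± 0.13) and the receptor gene PDGFRA (1.01 ± 0.13) rose and LUM fell (-1.63 ± 0.18), while DCN averaged 2.37 in TwistER and 2.37 in GFP arrays. COL1A1 kept its call without GFP replicate 1 and lost it without any other single array. The endothelial markers that rose were KDR (1.79 ± 0.12) and PECAM1 (0.61 ± 0.12). KDR kept its call with any 1 array left out, and PECAM1 lost it without TwistER replicate 1 or 3 or GFP replicate 2. The part of other cells in the results below was not tested, and fewer cells of a kind cannot be told apart from less RNA per cell.

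Of the 8 measured factors, GRHL2 and EHF fell, 0 rose and 6 did not pass the test. All 8 differences were below 0, with a median of -0.54. Over all genes, 9005 of 18417 differences were below 0, and the median was 0.01. For GRHL3 (-0.12), OVOL1 (-0.14) and ELF5 (-0.15) the limma interval of the difference included 0. Without GFP replicate 1 the differences of GRHL3 and ELF5 were above 0, at 0.02 each. In 5 of the 8 the TwistER and GFP arrays did not overlap, each time with TwistER lower. Over all genes the groups did not overlap in 28.4%, and in 14.5% TwistER was the lower. Falls made up 4.11% of all genes, against 2 of these 8. At an unadjusted p under 0.05, 5 factors were lower and 0 higher, against 11.1% of all genes lower and 10.4% higher at that threshold. Without GFP replicate 1, 5 factors fell (GRHL2, EHF, ELF3, GRHL1 and OVOL2), but leaving out that array also raised the share of all genes that fell to 8.09% and of those that rose to 6.97%.

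**Figure D1:**
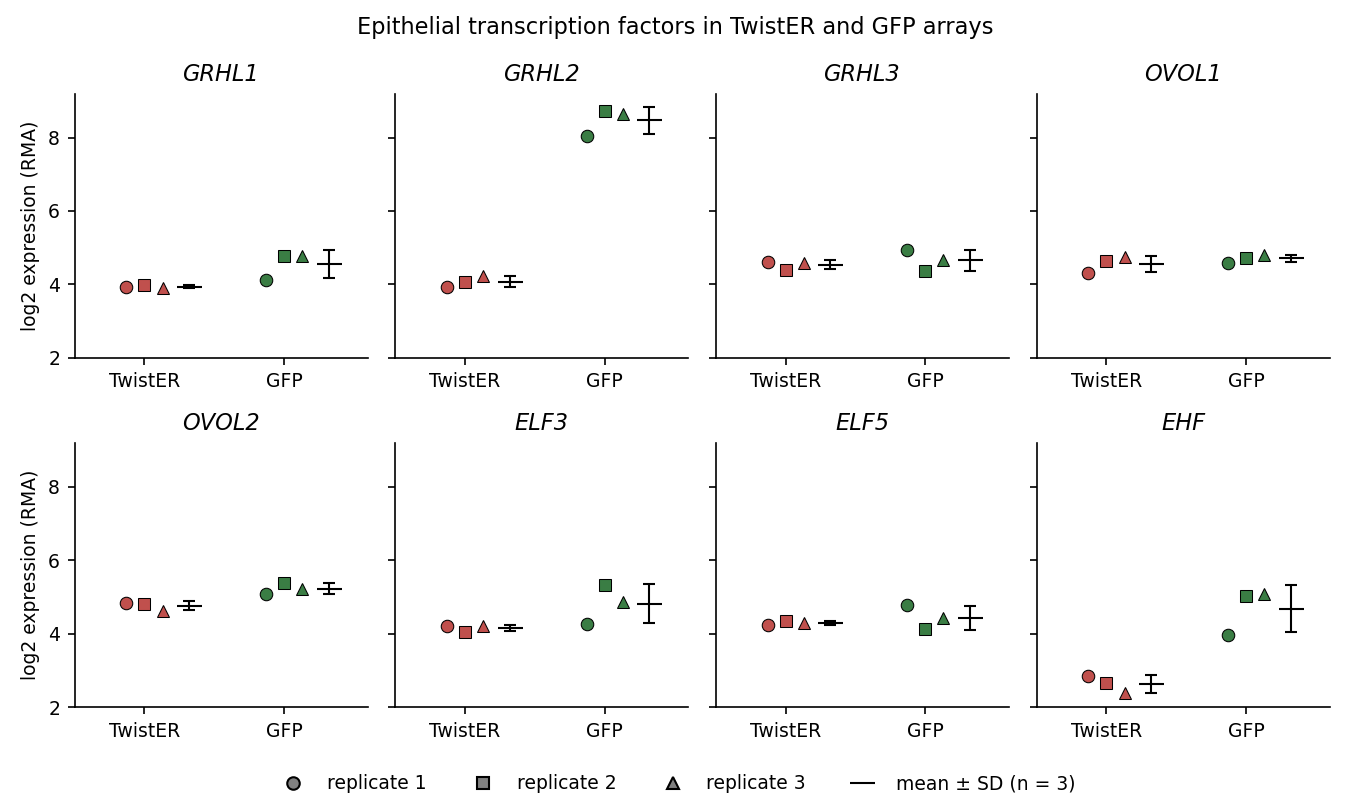
Log2 expression (RMA) of the 8 measured factors in the TwistER arrays (left in each panel) and the GFP arrays (right), with 1 symbol per replicate and the mean ± SD of 3 arrays beside it. GRHL2 lies between 3.93 and 4.22 in TwistER and between 8.05 and 8.72 in GFP, EHF is the other factor with a wide gap, and GFP replicate 1 lies towards the TwistER values in 6 panels.

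Among the grainyhead-like genes GRHL2 fell, and GRHL1 and GRHL3 did not pass with all arrays. GRHL2, the member best known as a guardian of the epithelial state, read 3.93, 4.08 and 4.22 in the TwistER arrays, against 8.05, 8.72 and 8.65 in the GFP arrays. Every TwistER array lay far below every GFP array, with a gap of 3.84 between the nearest arrays of the groups. The mean log2 level was 4.08 ± 0.14 in TwistER and 8.47 ± 0.37 in GFP (SD, n = 3), a difference of -4.40 ± 0.18 (SE), or 21.1-fold lower (limma adjusted p = 5.92e-06, 95% interval -4.82 to -3.98). It ranked 5 among the falls of all genes. The GRHL2 mean ranked at the 22.8 percentile of genes in TwistER arrays and at the 87.0 percentile in GFP arrays. Differences can be compressed at dim levels such as that in TwistER arrays. The 21.1-fold is therefore a change in signal and need not be the change in RNA. Without GFP replicate 1 the difference was -4.61 ± 0.11.

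GRHL1, which in mouse regulates desmosomal cadherins of the skin, read 3.94, 3.97 and 3.91 in TwistER arrays, against 4.13, 4.76 and 4.77 in GFP arrays. The groups did not overlap, but GFP replicate 1 lay only 0.15 above the highest TwistER array. The difference of -0.62 ± 0.18 (95% interval -1.02 to -0.21) missed the threshold, with a limma adjusted p of 0.0717. Leaving out GFP replicate 1 gave -0.83 ± 0.09 (limma adjusted p = 0.00106), past the threshold. GRHL3, a factor of skin barrier formation and wound closure, read 4.61, 4.40 and 4.59 in TwistER arrays, against 4.94, 4.37 and 4.65 in GFP arrays. These values overlapped, and the GRHL3 difference was -0.12 ± 0.16 (95% interval -0.47 to 0.24, limma adjusted p = 0.746), which turned to 0.02 without GFP replicate 1.

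To set the relatives against each other, the log2 value of one was subtracted from that of the other on each array. This removes a constant offset between probe sets but not the compression of differences at dim ones. In GFP arrays GRHL1 lay at the 31.9, GRHL3 at the 33.7, ELF3 at the 37.0 and ELF5 at the 29.6 percentile of genes, so an unequal change in signal need not be an unequal change in RNA. GRHL2 minus GRHL1 was -0.01, 0.10 and 0.31 in TwistER arrays, against 3.93, 3.95 and 3.88 in GFP arrays, a change of -3.78. The groups were far apart, and p = 0.1 in a 2-sided exact permutation test, the smallest p that 3 against 3 arrays allow (0.15 adjusted over the 6 pairs compared). Within the GFP arrays this quantity had an SD of 0.038, although GRHL2 and GRHL1 each had an SD of 0.37 there, because both were lower in GFP replicate 1. GRHL2 minus GRHL3 was -0.68, -0.32 and -0.38 in TwistER arrays, against 3.12, 4.34 and 4.00 in GFP arrays, a change of -4.28 with the same exact permutation p = 0.1. In GFP replicate 1 GRHL3 was higher, not lower, than in the other GFP arrays, so this quantity varied more (SD 0.63).

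**Figure D2:**
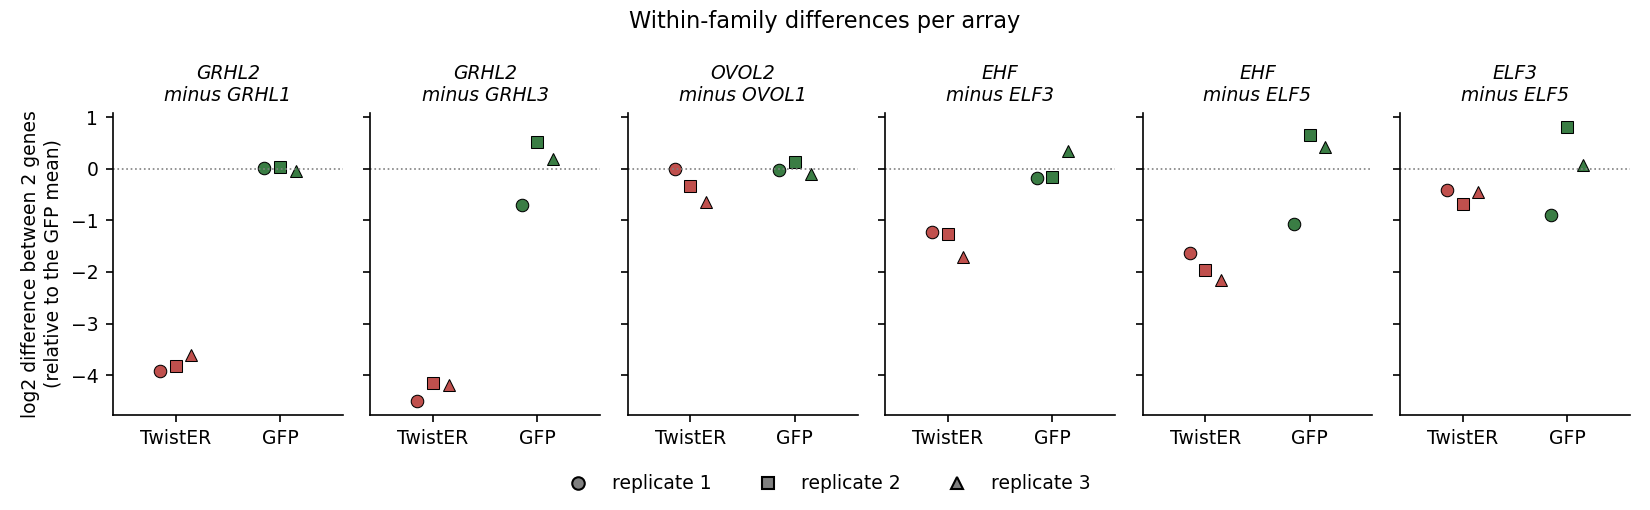
Difference between the log2 values of 2 related genes on each array, drawn relative to its mean over the 3 GFP arrays, with TwistER on the left and GFP on the right of each panel and 1 symbol per replicate. TwistER and GFP arrays are apart for GRHL2 against GRHL1 (-3.78) and GRHL3 (-4.28) and for EHF against ELF3 (-1.40) and ELF5 (-1.91), and they overlap for OVOL2 against OVOL1 and ELF3 against ELF5.

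More distant relatives of the grainyhead and p53 families were listed as well, and 4 of those 6 genes were measured. UBP1 and TFCP2, widely expressed CP2-type factors, TFCP2L1 and TP73 had differences of -0.02, 0.01, 0.10 and -0.01. In limma 0 of the 4 passed, 0 also had an unadjusted p under 0.05, and the median was -0.00.

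Neither OVOL gene passed the test with all arrays. In GFP arrays OVOL1 lay at the 34.7 and OVOL2 at the 45.7 percentile of genes, so the compression at dim probe sets may apply here too. OVOL2, which represses ZEB1 in epithelia, read 4.84, 4.82 and 4.61 in TwistER arrays, against 5.09, 5.38 and 5.21 in GFP arrays. The groups did not overlap, with 0.25 between their nearest arrays. OVOL2 averaged 4.76 ± 0.12 in TwistER and 5.23 ± 0.15 in GFP (SD, n = 3), and the difference of -0.47 ± 0.12 just missed the threshold (limma adjusted p = 0.0529, 95% interval -0.75 to -0.19). With GFP replicate 1 left out, OVOL2 fell by 0.54 (limma adjusted p = 0.0184). OVOL1, a relative that restrains growth in differentiating skin cells of the mouse, read 4.32, 4.64 and 4.74 in TwistER arrays, against 4.59, 4.73 and 4.80 in GFP arrays. These groups overlapped, and the OVOL1 difference was -0.14 ± 0.14 (95% interval -0.45 to 0.17, limma adjusted p = 0.642). OVOL2 minus OVOL1 changed by -0.33, with an exact permutation p = 0.3.

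Among the epithelial ETS genes EHF was the one that fell. EHF, a factor of glandular and airway epithelium, read 2.86, 2.65 and 2.38 in TwistER arrays, against 3.95, 5.01 and 5.08 in GFP arrays. All TwistER arrays were below all GFP arrays, by at least 1.09, and GFP replicate 1 was about 1.1 below the other GFP arrays. Mean levels were 2.63 ± 0.24 in TwistER and 4.68 ± 0.64 in GFP (SD, n = 3), a difference of -2.05 ± 0.29 or 4.15-fold (limma adjusted p = 0.00285). The difference ranked 39 among all falls. EHF lay at the 4.47 percentile of genes in TwistER arrays and at the 34.2 percentile in GFP arrays, near the dim end in TwistER. Without GFP replicate 1 the EHF difference was -2.42 ± 0.14.

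ELF3, which is induced in inflamed and differentiating epithelium, read 4.21, 4.05 and 4.21 in TwistER arrays, against 4.26, 5.31 and 4.87 in GFP arrays. The TwistER arrays lay within 0.16 of each other, while the GFP arrays spanned 1.06, the lowest only 0.04 above TwistER. With all arrays the ELF3 difference of -0.66 ± 0.24 did not pass (limma adjusted p = 0.14, 95% interval -1.20 to -0.12). With GFP replicate 1 left out, ELF3 fell by 0.94 ± 0.14 (limma adjusted p = 0.00542). ELF5, the alveolar switch of the mammary gland, read 4.23, 4.36 and 4.28 in TwistER arrays, against 4.77, 4.12 and 4.42 in GFP arrays. Its groups overlapped, with a difference of -0.15 ± 0.16 (95% interval -0.52 to 0.23, limma adjusted p = 0.694), or 0.02 without GFP replicate 1.

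On each array EHF minus ELF3 was -1.35, -1.40 and -1.83 in TwistER, against -0.31, -0.30 and 0.21 in GFP, a change of -1.40 without overlap (exact permutation p = 0.1). EHF minus ELF5 was -1.38, -1.71 and -1.91 in TwistER arrays, against -0.82, 0.89 and 0.67 in GFP arrays, a change of -1.91 (exact permutation p = 0.1), or -2.44 without GFP replicate 1. ELF3 minus ELF5 changed by -0.51 with overlapping groups (exact permutation p = 0.4).

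**Figure D3:**
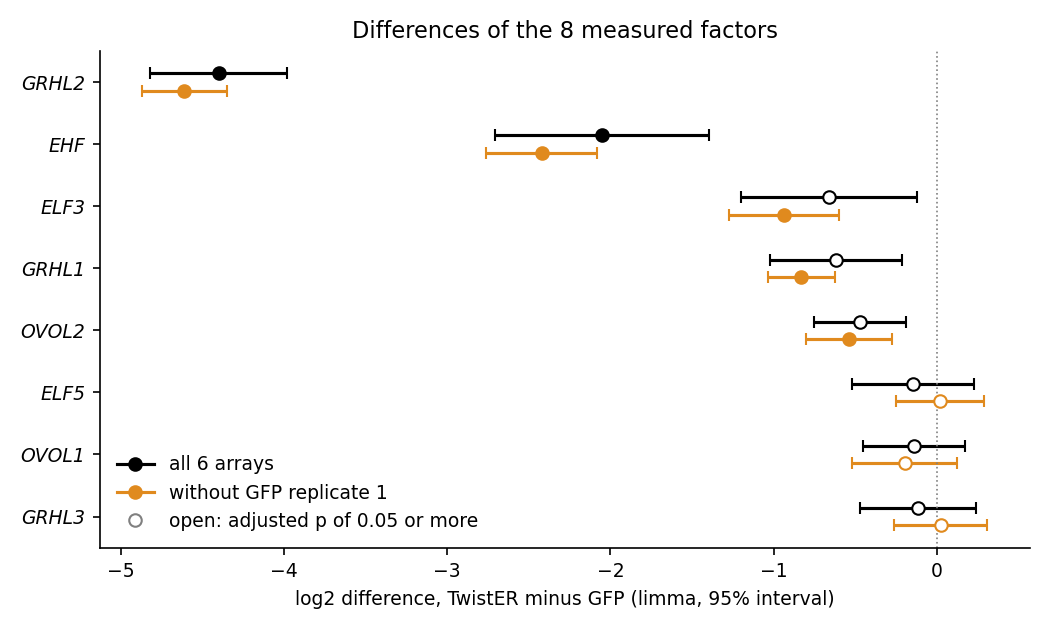
Log2 difference TwistER minus GFP with its 95% interval in limma for the 8 factors, with all 6 arrays (black) and without GFP replicate 1 (orange), filled where the adjusted p over all genes was under 0.05. GRHL2 (-4.40) and EHF (-2.05) are filled in both, ELF3, GRHL1 and OVOL2 only without that array, and ELF5, OVOL1 and GRHL3 in neither.

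EHF and ELF5 are neighbours on chromosome 11, so the letters around their start sites are shown. Those of ELF3 and of the first start of GRHL3 are printed too, and the other windows held for the factors are not. RefSeq's table (build GRCh38.p14) held promoter windows, 250 bases before to 50 after a start, for 5 of the 8 measured factors. It held none for GRHL2, OVOL1 or OVOL2, so nothing below on letters covers these genes. Capitals mark the E-box CANNTG, the class of sites to which Twist, SNAI and ZEB proteins bind.
EHF, first start, chr11:34624007-34624306, plus strand: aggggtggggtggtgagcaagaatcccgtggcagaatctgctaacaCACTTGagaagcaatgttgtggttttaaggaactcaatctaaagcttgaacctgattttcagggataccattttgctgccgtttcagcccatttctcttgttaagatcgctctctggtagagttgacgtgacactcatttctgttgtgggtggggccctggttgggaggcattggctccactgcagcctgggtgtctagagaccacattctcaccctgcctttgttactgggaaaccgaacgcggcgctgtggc
EHF, second start, chr11:34632316-34632615, plus strand: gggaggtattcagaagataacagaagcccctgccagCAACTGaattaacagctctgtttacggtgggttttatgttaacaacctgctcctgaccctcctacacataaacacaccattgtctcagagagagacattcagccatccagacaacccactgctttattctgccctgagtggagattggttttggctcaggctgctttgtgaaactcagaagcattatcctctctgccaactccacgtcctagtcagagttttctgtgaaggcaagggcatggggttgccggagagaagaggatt
ELF5, chr11:34511675-34511974, minus strand: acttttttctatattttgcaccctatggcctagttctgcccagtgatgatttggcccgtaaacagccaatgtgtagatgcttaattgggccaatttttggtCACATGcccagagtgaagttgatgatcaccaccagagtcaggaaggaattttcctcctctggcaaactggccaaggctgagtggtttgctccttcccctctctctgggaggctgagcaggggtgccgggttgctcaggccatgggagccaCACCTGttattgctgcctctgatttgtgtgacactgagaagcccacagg
ELF3, chr1:202010337-202010636, plus strand: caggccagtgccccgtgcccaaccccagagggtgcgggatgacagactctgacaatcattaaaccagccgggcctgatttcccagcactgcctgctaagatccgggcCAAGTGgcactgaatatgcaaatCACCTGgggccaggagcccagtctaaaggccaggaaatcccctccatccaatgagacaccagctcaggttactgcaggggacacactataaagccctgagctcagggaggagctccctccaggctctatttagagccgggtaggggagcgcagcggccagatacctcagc
GRHL3, first start, chr1:24319107-24319406, plus strand: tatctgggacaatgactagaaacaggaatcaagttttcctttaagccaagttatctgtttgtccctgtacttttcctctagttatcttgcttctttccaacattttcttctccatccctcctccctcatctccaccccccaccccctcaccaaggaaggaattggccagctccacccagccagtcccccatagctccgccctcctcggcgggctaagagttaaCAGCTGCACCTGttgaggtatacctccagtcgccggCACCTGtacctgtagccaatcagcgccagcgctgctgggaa

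The EHF windows held 1 E-box each, at -204 and -214 bases from the start, and neither was of the form CACCTG or CAGGTG that SNAI and ZEB proteins prefer. ELF5 and ELF3 held 2 E-boxes each, 1 of them of that form, GRHL3 held 3 at its first start, 2 of them of that form, and the single GRHL1 window held 0. CANNTG reads the same on both strands and occurred in 68.7% of the 35116 promoter windows of the table. CACCTG or its reverse CAGGTG occurred in 20.6%. The grainyhead-like site AACCGGTT, found in 0.1% of windows, was in 0 of the windows held for the factors, that of TP63 included and GRHL2 lacking. The ETS core GGAA or its reverse TTCC, found in 95.5%, was in all the windows printed here except that of the second EHF start. No E-box overlapped a GGAA. These matches describe letters only.

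No measured gene next to GRHL2 or EHF on the chromosome passed the test. The measured neighbours of EHF were CAT (-0.04), ELF5 (-0.15), APIP (-0.08) and PDHX (-0.23), and their limma adjusted p ranged from 0.353 to 0.873. Beside GRHL2 on chromosome 8 were ZNF706 (-0.39 ± 0.24), NCALD (0.12 ± 0.14) and RRM2B (-0.16 ± 0.17), with overlapping groups in each and a lowest limma adjusted p of 0.406. Next to OVOL2 on chromosome 20, MGME1, a mitochondrial exonuclease gene, fell by 0.58 ± 0.12 (limma adjusted p = 0.0196). Neighbours were taken as the nearest 2 protein-coding genes of the RefSeq table on each side, after the values of the factors were known.

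The genes whose values were most like those of GRHL2 over the 6 arrays were RAB25, CDH1, MACC1 and TSPAN1. Likeness was the root mean square of the distance between 2 genes after each had its own mean over 6 arrays removed, and it was 0.299, 0.308, 0.365 and 0.432 on the log2 scale. RAB25, a small GTPase of apical recycling, read 4.36, 4.72 and 4.997 in TwistER arrays, against 7.90, 8.95 and 9.08 in GFP arrays. It shared with GRHL2 the lower value of GFP replicate 1. CDH1 read 4.93, 5.06 and 5.30 in TwistER arrays, against 9.53, 10.35 and 10.38 in GFP arrays. MACC1, a regulator of the MET receptor gene, differed in this respect: it read 3.88, 3.94 and 3.68 in TwistER arrays, against 8.52, 8.16 and 8.16 in GFP arrays, so that replicate 1 was its highest GFP array. Nearest to EHF were PNP, a purine salvage enzyme (0.200), the adhesion receptor ADGRG1 (0.215), AP1M2, the epithelial subunit of a basolateral sorting adaptor (0.219), and the creatine kinase CKB (0.240). AP1M2 read 4.10, 4.40 and 4.13 in TwistER arrays, against 5.43, 6.93 and 6.81 in GFP arrays, again with replicate 1 lowest. Each of these 8 genes fell, as the measure of likeness required. Because that measure ran over all 6 arrays, it also favoured genes that share a member's value in GFP replicate 1.

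**Figure D4:**
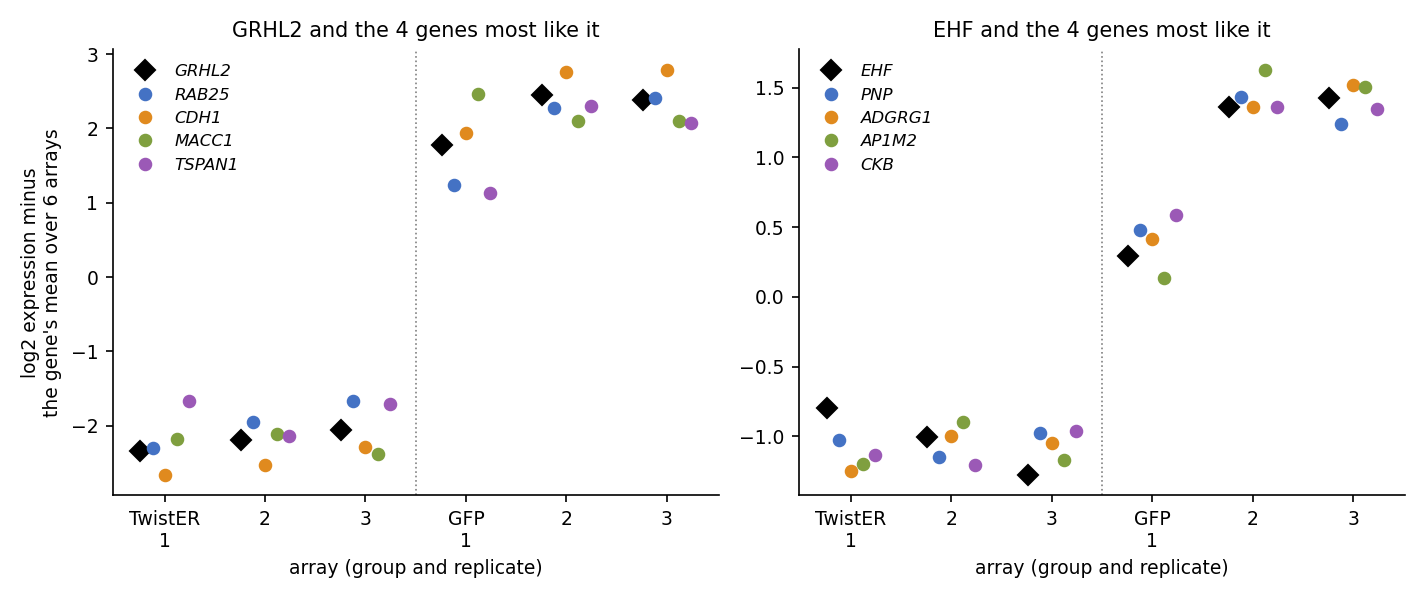
Log2 expression of GRHL2 (left) and EHF (right, diamonds) and of the 4 genes most like each (coloured points), each with its mean over 6 arrays subtracted, for TwistER replicates 1 to 3 and then GFP replicates 1 to 3. In the EHF panel all 5 genes have GFP replicate 1 between the TwistER arrays and the other GFP arrays, which the choice of genes favoured. In the GRHL2 panel MACC1 is the gene for which replicate 1 is the highest GFP array.

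The same GFP array was low in most of the factors. GFP replicate 1 was below both other GFP arrays in 6 of the 8 (GRHL1, GRHL2, OVOL1, OVOL2, ELF3 and EHF), by 0.17 for OVOL1 to 1.10 for EHF relative to their mean, and above both in GRHL3 (0.43) and ELF5 (0.50). Over all genes it was below both others in 41.8%. The range over 3 arrays was wider in GFP than in TwistER for 7 of the 8 factors, OVOL1 being the exception, and for 64.5% of all genes. The labels give nothing that sets this array apart.

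Genes known as GRHL targets were mostly lower in TwistER. Of 16 measured, 11 fell and 0 rose, with a median difference of -1.39, against 4.11% falls among all genes. This list and those below were chosen with earlier results of these data known, so the contrast with all genes is no independent test. CDH1, encoding E-cadherin, fell by 4.99 ± 0.23 and RAB25 by 3.95 ± 0.30 on the log2 scale. MAL2, of apical transport, read 8.10, 8.03 and 8.62 in TwistER arrays, against 11.80, 11.84 and 11.78 in GFP arrays, a difference of -3.55 ± 0.16. EPCAM, an epithelial adhesion protein, read 8.69, 8.90 and 8.74 in TwistER arrays, against 12.39, 11.90 and 11.88 in GFP arrays, and differed by -3.28 ± 0.16. In both genes the groups were far apart, and GFP replicate 1 was not the lowest GFP array. The other falls were in MARVELD2, ERBB3, DSP, SPINT1, ST14, ESRP2 and CLDN4, from -1.70 to -1.07. PRSS8, CLDN3, DSG1, TGM1 and ARHGEF19 did not pass, and TGM1 and ARHGEF19, known in the mouse as targets of Grhl3, had differences of 0.10 and 0.13. GFP replicate 1 was below both other GFP arrays in 12 of the 16, and without it 12 fell and 0 rose. The calls of SPINT1 and ESRP2 (limma adjusted p = 0.0477 and 0.0348) did not survive leaving out any single array but GFP replicate 1. CDH1 and EPCAM were also among the epithelial markers, and CDH1 and RAB25 among the genes most like GRHL2, so these falls are not separate findings.

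**Figure D5:**
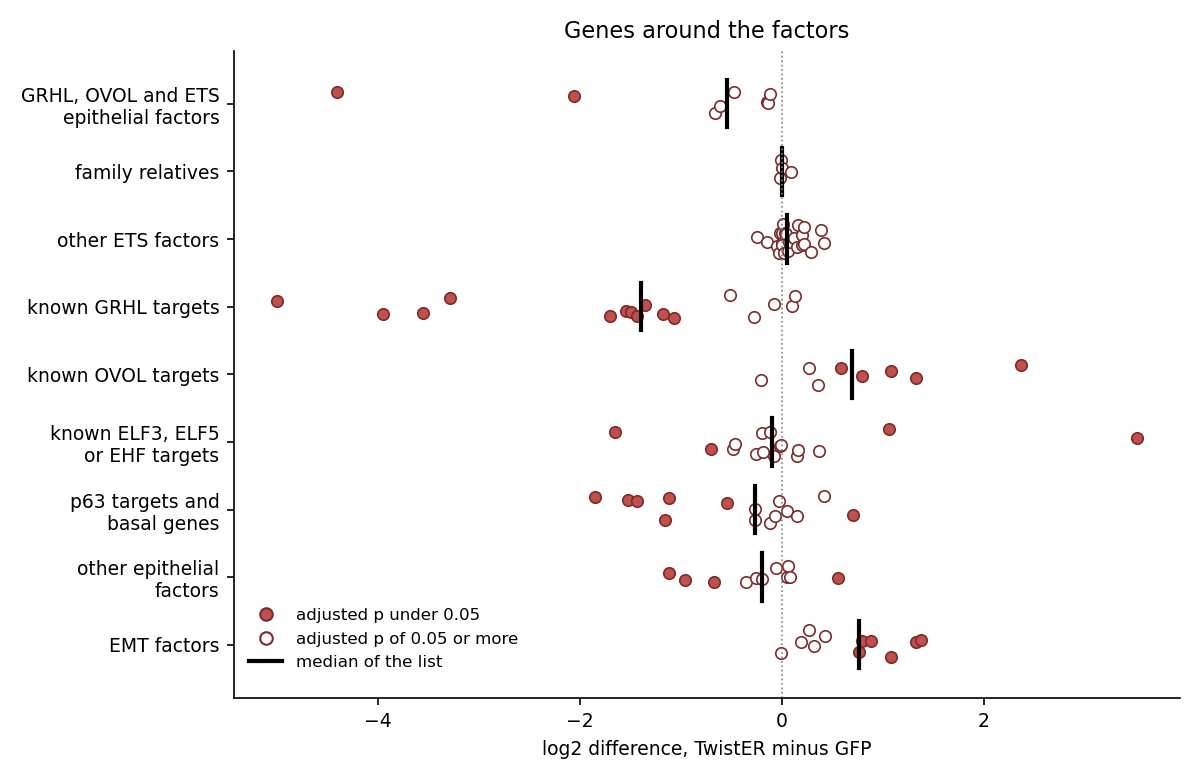
Log2 difference TwistER minus GFP of each measured gene in the factor set and the lists around it, filled where the limma adjusted p over all genes was under 0.05, with a bar at each list's median. Known GRHL targets lie mostly left of 0 (median -1.39), known OVOL targets (0.69) and EMT factors (0.77) mostly right of it, and the other ETS factors (median 0.05) and family relatives (median -0.00) lie around 0.

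Genes known to be repressed or bound by OVOL proteins were mostly higher. Of 8 measured, 5 rose and 0 fell (median 0.69), against 4.72% rises and 4.11% falls among all genes. ID2, a helix-loop-helix protein that blocks DNA binding of its partners, read 7.71, 7.57 and 7.42 in TwistER arrays, against 5.35, 5.03 and 5.23 in GFP arrays, and rose by 2.36 ± 0.13. ZEB2 (1.32 ± 0.13) and ZEB1 (1.09 ± 0.14), repressors of CDH1, also rose, as did SNAI2 (0.79 ± 0.15) and VIM (0.59 ± 0.14). Without TwistER replicate 1 or replicate 3 the rises numbered 3, with SNAI2 and VIM the calls lost, and VIM was also lost without any other array but GFP replicate 1. MYC, CDH2 and TWIST1 had differences of -0.21, 0.36 and 0.27 that did not pass. The labels do not give the species of the Twist in the construct, so TWIST1 checks nothing about it. Of 11 EMT factors, of which ZEB1, ZEB2, SNAI2 and TWIST1 were also in the OVOL list, 6 rose and 0 fell. The largest rises besides ZEB2 and ZEB1 were SNAI1 (1.38 ± 0.12) and TCF4 (0.88 ± 0.22, limma adjusted p = 0.0454), and TCF4 lost its call without any TwistER array or without GFP replicate 3.

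Genes known as targets of ELF3, ELF5 or EHF moved both ways. Among 16 measured there were 2 rises and 2 falls, and the median difference was -0.09. Rises made up 4.72% and falls 4.11% of all genes. PTGS2, the inducible cyclooxygenase, whose promoter ELF3 activates, rose by 3.51 ± 0.11, and TGFBR2, another known target of ELF3, by 1.06 ± 0.13.  The tight junction gene CLDN7 fell by 1.65 ± 0.22 and the simple-epithelial keratin gene KRT8, also among the epithelial markers, by 0.70 ± 0.14. The KRT8 call was lost without TwistER replicate 2 or GFP replicate 2 or 3. SPRR1A, SPRR1B, SPRR2A and SPRR3, cornified envelope genes that ELF3 is known to activate in skin, did not pass, with differences between -0.26 and -0.02.

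In the other branches of the ETS family no difference passed the main test, and the count in the alternatives depended on the setting. Of 24 measured ETS genes 0 rose and 0 fell in limma, 2 were higher and 0 lower at an unadjusted p under 0.05, and the median was 0.05. Those 2, named after their values were seen, were ELK3 (0.42 ± 0.14, adjusted p = 0.105) and ETS1 (0.39 ± 0.10, adjusted p = 0.052), the founding member of the family. Both rose without GFP replicate 1 (limma adjusted p = 0.0139 and 0.0378), and 2 ETS genes rose with array weights. ETS1 rose in 7 of 15 alternatives, among them a second quantile normalization, cyclic loess, both brightness filters and the variance with trend, each with 1 ETS rise. SPDEF, a further ETS factor of secretory epithelium, differed by 0.29 ± 0.18 with overlapping groups (adjusted p = 0.422).

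Although TP63 itself is not analysed here, 15 of its known targets and basal epithelial genes were measured. Of these 6 fell and 1 rose (median -0.27), against 4.11% falls and 4.72% rises among all genes. S100A2, a calcium-binding protein, fell by 1.85 ± 0.12, LAMB3, a laminin chain of the basement membrane, by 1.52 ± 0.28, PERP, a desmosomal p53 and p63 target, by 1.43 ± 0.29, and the hemidesmosome integrin ITGB4 by 1.16 ± 0.21. SFN (-1.12) and JAG2 (-0.54) fell too, and DST rose (0.71 ± 0.11). The basal keratins KRT5, KRT14 and KRT15 did not pass, with differences of -0.12, -0.27 and -0.07. Leaving out any 1 array but GFP replicate 1 ended the calls of PERP (limma adjusted p up to 0.0756) and JAG2 (up to 0.178). LAMB3 lost its call without TwistER replicate 1 or 2 and ITGB4 without TwistER replicate 2, and 2 falls were left in the list without TwistER replicate 2.

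Other epithelial transcription factors were mixed, with 3 falls, 1 rise and 7 that did not pass among 11 (median -0.20). Among all genes 4.11% fell and 4.72% rose. TFAP2C, an AP-2 factor, fell by 1.12 ± 0.21, the endoderm factor FOXA2 by 0.96 ± 0.17 and KLF4 by 0.68 ± 0.11. SOX2, a factor of airway progenitors, rose by 0.56 ± 0.12 (limma adjusted p = 0.0268), a call that held without GFP replicate 1 and was lost without any other single array. TFAP2C lost its call without TwistER replicate 1 or 3.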

How the data were processed

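Biotin-labelled total RNA of 6 H358 samples was measured on Affymetrix arrays, following the protocols in the labels. Deposited were log2 values for each probe set, and the tool that the submitters' processing notes list is RMA. Its settings and version were not given in the files or labels read here. RMA equalises intensity distributions, so a shift of all transcripts would not show. The members and gene lists were chosen with earlier results of these data known.

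Of 33297 probe sets, 19460 had 1 symbol in the platform annotation, 1754 had several and 12083 were unnamed there. The brightest probe set of each gene was kept, which gave 18417 genes. All 6 columns were matched to samples, and 0 pairs of arrays held identical values. TwistER and GFP (3 arrays each) were compared with limma 3.58.1 under R 4.3.3 (linear fit and moderated 2-sided test, prior degrees of freedom 4.44) and Benjamini-Hochberg adjustment at 0.05 over all genes, and pairs of factors with exact permutation tests. Titles call the samples biological replicates but name no separate cultures, so a p-value covers the spread among these arrays, which may be technical, and their number limits precision. Named were the members, up to 4 genes per list past the threshold with the largest absolute difference, and the 4 genes most like each fallen member; further genes of short lists are named where a count is spelled out. Alternatives were 3 normalizations, 2 brightness filters (25 and 50 percentiles), mean probe sets, array weights, a robust variance with trend, a block for replicate number, and each array left out. On simulated data of 18417 genes limma recovered 93% of shifts of 2 and 73% of shifts of 1 on the log2 scale, with 12 calls among unshifted genes. The simulated noise was independent, with the same SD in both groups and no outlying array like GFP replicate 1. These figures therefore need not hold for the real arrays. Tables and plots used Python 3.11.15, pandas 2.3.3 and matplotlib 3.10.9.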

Additional observations from a re-analysis of the deposited data

How the results depend on the processing

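GRHL2 fell in all 15 alternatives (-4.61 to -4.28) and EHF in the 13 that kept it (-2.42 to -1.85; both brightness filters left it out). Factors that changed numbered 2 with all arrays. Among genes above the 50 percentile of brightness, where GRHL2 was the only factor tested, 1 changed. With array weights (0.194 for GFP replicate 1) 5 changed, and 2 to 5 with 1 array left out, the 5 without GFP replicate 1. With array weights GRHL1 was -0.79, ELF3 -0.93 and OVOL2 -0.52, each past the threshold. OVOL2 also passed after a second quantile normalization (-0.49), cyclic loess (-0.50) and the filter at the 25 percentile (-0.47). With 1 array left out, GRHL1 ranged from -0.83 to -0.51, ELF3 from -0.94 to -0.41 and OVOL2 from -0.54 to -0.39, and each passed only without GFP replicate 1. GRHL3, OVOL1 and ELF5 passed in 0 of 14 alternatives each. Genes changed in all numbered 1627 with all arrays, 3268 with array weights and 831 to 2773 with 1 array left out. The cause was not tested. Same-numbered arrays deviated together at r = 0.14, 0.02 and 0.16, and different-numbered ones at -0.16 to 0.04. Replicates 1 and 3 thus lay above every unmatched pair. The main test did not take the numbers as pairs, and these values do not settle whether they are. With the replicate block 2 factors and 1592 genes changed, and every factor kept its side of the threshold. Each factor had 1 probe set, so another probe set of a factor could not be tried. Dim values limit what can be read from EHF and the other factors near the bottom of the range.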
